A study of Rattus norvegicus with 16 samples.

Results

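The mitochondrial respiratory chain was followed in rat pituitary cells through the nuclear genes of its subunits. Members were taken by gene symbol: genes whose names start with Nduf (followed by a, b, c, s or v and a number), the genes Sdha to Sdhd, and genes whose names start with Uqcr, Cox4 to Cox8 or Atp5. Of 14557 genes read by a probe set with a single symbol, 83 were members, of which 35 belonged to complex I, 4 to complex II, 7 to complex III, 17 to complex IV and 20 to complex V. By name, 64 of them are subunits, 16 are pseudogenes or extra gene copies, and 3 have another role or place (Ndufa4l2, a relative of Ndufa4, Cox7a2l, a supercomplex assembly factor, and Atp5if1, the inhibitor of the ATP synthase). The subunits encoded in mitochondrial DNA were not analysed here.

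The study asked how 3 ligands alter transcripts of corticotropes, the pituitary cells that make ACTH. They were CRH, the hypothalamic hormone that acts on these cells, the cytokine IL-6, and eNampt, the secreted form of an enzyme of NAD synthesis. All 4 groups held cells from the pituitary glands of 21-day-old Wistar rats, dissociated with collagenase and kept in culture in a medium with serum and FGF. Corticotropes were drawn from that culture on biotin-binding beads with an antibody, against CRHR1 per the protocol and against CRH per the design text. There were 4 arrays of control cells, whose titles give no time, and 4 each of cells given CRH, IL-6 or eNampt for 24 h, at doses not given in the sources used here. RNA was amplified from 5 ng of total RNA. Whether the 4 arrays of a group stand for separate animals or cultures is not in the labels. A p-value here therefore covers only the scatter among these arrays, which may be technical.

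The chain passes electrons from NADH (complex I) and from succinate (complex II) through coenzyme Q to complex III, on to cytochrome c, and by complex IV to oxygen. Complexes I, III and IV pump protons as they do so, and complex V, the ATP synthase, lets the protons flow back and makes ATP. Most subunits are encoded in the nucleus, are made in many tissues, and are known targets of the transcription factors NRF1 and NRF2 (GABP, of the ETS family). Hormone-secreting cells such as corticotropes draw on this ATP for making and releasing peptide.

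Control arrays 3 and 4 stood apart over all 36685 probe sets. The 90th percentile of log2 values was 4.58 on array 3 and 4.43 on array 4, while the remaining arrays ranged from 5.07 to 5.51. Results are therefore given with and without them. Of the corticotrope markers, Pomc had a mean of 8.15 over the 16 arrays, whereas Tbx19 at 1.54 and Neurod1 at 1.35 lay below 1.95, the median of all values, and Crhr1 was not analysed here. Some markers of other cells were dim, such as Tshb of thyrotropes at 1.41 and Cdh5 of endothelium at 1.60. Others were bright: the lactotrope marker Prl was at 10.78 and the collagen genes Col1a1 at 6.84, Col1a2 at 7.20 and Col3a1 at 6.21. Dcn at 4.66 and Pdgfrb at 4.10, also fibroblast and mural markers, were less bright but above the median of all values. These values go against a pure preparation of corticotropes, so the cells are called pituitary cells here, and in such bulk RNA fewer cells of a type and less RNA per cell cannot be told apart. Summed over a list (log2 of the sum), the corticotrope markers (3 measured of 6) were at 7.34 on control array 3 and 8.17 on control array 4. These were the lowest and the highest of the control arrays, and the ligand arrays lay between 7.90 and 8.74. The sum rests mainly on Pomc, with means of 7.73 in control, 8.45 with CRH, 8.18 with IL-6 and 8.26 with eNampt. It therefore does not separate the number of corticotropes from their Pomc level. Prl was at 10.52 and 10.93 on control arrays 3 and 4, against 10.12 to 11.06 on the ligand arrays. The fibroblast and mural markers (5 of 6) were at 8.74 and 7.21, against 7.53 to 9.31. Gh1, the somatotrope marker, was at 2.85 and 5.49 on them, against 4.34 to 6.35. Leukocyte markers (5 of 5) summed to between 4.70 and 6.52 on all arrays, but 3 of the 5 lay at or below the median of all values. Ptprc had a mean of 1.48 over the 16 arrays, and the brightest, Cd14, a mean of 4.10. The part of these cell types in the results below was not tested.

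Signal from the chain was strong. The subunits had a median level of 6.14 (log2, mean of 16 arrays, 64 genes), with single genes from 1.29 to 9.90, and 42 of the 64 (65.6%) lay above 5.45, the 90th percentile of all gene means. The median gene of the array was at 2.25. A probe set's brightness also depends on its probes, so these levels say whether a gene was read well, not how its abundance compares with another gene's. Subunit medians were 6.45 for complex I, 5.03 for complex II, 6.86 for complex III, 4.28 for complex IV and 6.48 for complex V. The pseudogenes and copies had a median of 2.18, and 6 of the 16 lay at or below the median of all values. Ndufs6-ps1 at 6.12 and Ndufa13-ps1 at 5.53 were the copies above the 90th percentile. A copy can share probe sequence with its parent gene, so the values of copies are uncertain.

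**Figure D1:**
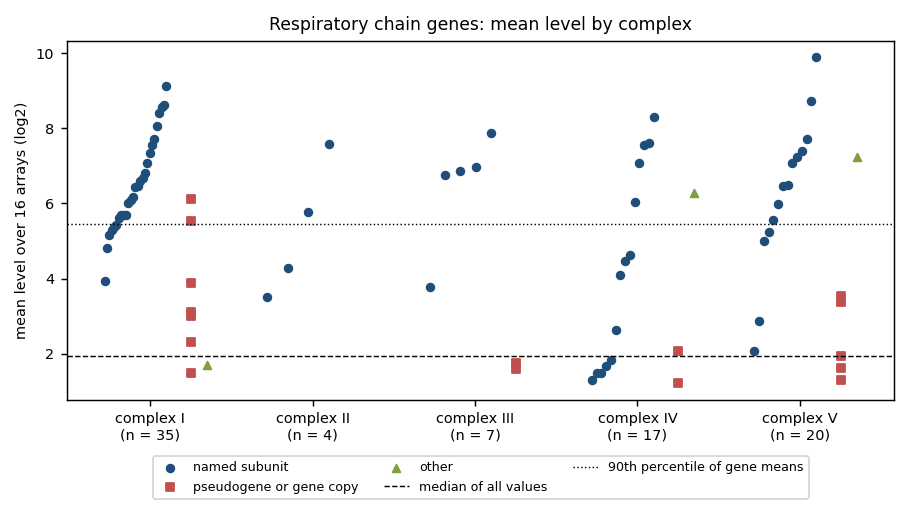
Mean level over 16 arrays (log2, y axis) of the 83 respiratory chain genes by complex (x axis). Circles are named subunits, squares pseudogenes or gene copies, triangles other members. The dashed line is the median of all values (1.95) and the dotted line the 90th percentile of gene means (5.45). Complexes I, II, III and V hold no subunit below the dashed line, while 5 complex IV subunits lie below it.

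The brightest members by complex are core and accessory parts known from many tissues. In complex I these were Ndufa4 at 9.14 and Ndufs6 at 8.62 (Ndufa4, kept here by its symbol, is now assigned to complex IV, and Ndufs6 is an accessory subunit of the NADH-oxidising module). In complex III they were Uqcrh, the hinge protein, at 7.88 and the core protein Uqcrc1 at 6.98. Complex IV had Cox4i1, the isoform of subunit 4 found in most tissues, at 8.30 and Cox7b at 7.61. In complex V they were Atp5mk, a small membrane subunit, at 9.90 and Atp5f1b, the catalytic beta subunit, at 8.72. Complex II had Sdhb, the iron-sulfur protein, at 7.58, Sdha, the flavoprotein, at 5.78, and the membrane anchors Sdhd at 4.29 and Sdhc at 3.52.

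Isoforms known for single tissues were mostly dim. The heart and skeletal muscle isoforms Cox6a2 at 1.83 and Cox8b at 1.49, and the testis isoforms Cox7b2 at 1.29 and Cox8c at 1.48, lay below the median of all values, as did Ndufa4l2 at 1.69. Cox6b1, the Cox6b isoform of most tissues, also lay below it, at 1.66, which describes this probe set and not the gene's abundance. The probe sets of Cox6a1 at 7.55 and Cox8a at 4.63, both widely expressed isoforms, were brighter than the median of all values. Cox4i2, known for its expression in lung, was at 4.46, and Cox6b2, known for its expression in testis, was at 4.10. The inhibitor gene Atp5if1 was at 7.25.

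Promoters are shown for 5 members to which the comparisons below return, to set their sequence beside the factors known to act on the chain's genes. Each sequence is the 250 bases before the gene's RefSeq start on GRCr8, 5′ to 3′ on the gene's strand, with matches to a motif in capitals. The motifs, searched on both strands, were the GC-rich element of NRF1, ETS (CCGGAAG), YY1 (AAGATGG), CRE (TGACGTCA, the element of cAMP signalling, through which CRH acts) and SP1 (GGGCGG). In these 5 promoters no match overlapped another.
Sdhc (chr13:86098026-86098275, minus strand, 3 SP1 matches): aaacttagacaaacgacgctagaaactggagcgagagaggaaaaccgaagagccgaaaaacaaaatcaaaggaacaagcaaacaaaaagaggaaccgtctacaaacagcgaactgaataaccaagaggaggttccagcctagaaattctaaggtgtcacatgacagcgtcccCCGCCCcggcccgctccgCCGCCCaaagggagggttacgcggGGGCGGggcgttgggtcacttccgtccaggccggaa
Sdha (chr1:30764303-30764552, plus strand, 2 NRF1 matches): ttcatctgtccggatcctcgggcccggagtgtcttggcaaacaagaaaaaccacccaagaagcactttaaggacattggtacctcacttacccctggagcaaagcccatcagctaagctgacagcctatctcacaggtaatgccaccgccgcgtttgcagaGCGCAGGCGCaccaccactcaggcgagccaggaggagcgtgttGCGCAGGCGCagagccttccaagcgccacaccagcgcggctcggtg
Ndufs8 (chr1:210573699-210573948, minus strand, 1 ETS match): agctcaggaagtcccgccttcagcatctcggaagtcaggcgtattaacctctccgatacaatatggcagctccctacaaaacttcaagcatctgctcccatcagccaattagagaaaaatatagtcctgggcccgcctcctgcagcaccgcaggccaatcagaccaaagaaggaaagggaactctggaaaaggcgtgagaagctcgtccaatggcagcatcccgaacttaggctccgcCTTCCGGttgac
Uqcrc2 (chr1:184598990-184599239, plus strand, 2 ETS matches and 1 YY1 match): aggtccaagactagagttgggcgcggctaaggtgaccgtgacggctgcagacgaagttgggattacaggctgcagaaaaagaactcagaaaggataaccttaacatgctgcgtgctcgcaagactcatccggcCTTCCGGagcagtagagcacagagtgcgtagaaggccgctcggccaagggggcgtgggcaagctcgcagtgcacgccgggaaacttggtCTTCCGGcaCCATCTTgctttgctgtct
Cox6b2 (chr1:78122621-78122870, plus strand, 0 matches): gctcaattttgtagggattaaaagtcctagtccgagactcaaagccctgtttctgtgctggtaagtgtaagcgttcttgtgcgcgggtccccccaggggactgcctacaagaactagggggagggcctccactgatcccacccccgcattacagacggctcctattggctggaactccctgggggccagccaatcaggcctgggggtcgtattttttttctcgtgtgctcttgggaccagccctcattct

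The RefSeq table held a promoter for 68 of the 83 members, 59 of them subunits. An NRF1 or ETS match was present in 25 of 59 subunit promoters (42.4%), against 1834 of 11727 promoters of genes on the array (15.6%) and 11.2% of 27457 promoters in the table. NRF1 matched in 10 subunit promoters (16.9%, against 6.03% on the array) and ETS in 16 (27.1%, against 10.7%). Median GC content was 54.4% for subunits and 56.0% for genes on the array. By complex, NRF1 or ETS matched in 9 of 26 promoters of complex I, 3 of 4 of complex II, 4 of 5 of complex III, 2 of 11 of complex IV and 7 of 13 of complex V. CRE matched in 2 subunit promoters, those of Ndufb2 and Cox8a (3.39%, against 2.17% on the array). SP1 matched in 32.2% of subunit promoters, against 43.6% on the array. YY1 matched in 4 (6.78%, against 4.33%), and the 6 promoters of copies held 0 matches to any of these motifs. A match describes the letters and is not a measured binding site.

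The level of the subunits varied between the arrays of every group, and most subunits were low on the same array. Their median was 6.52, 6.38, 4.18 and 5.73 on control arrays 1 to 4 and 6.76, 7.01, 5.75 and 6.30 on the CRH arrays. It was 6.32, 5.60, 6.42 and 6.75 on the IL-6 arrays and 6.62, 6.98, 6.01 and 6.22 on the eNampt arrays. Control array 3 was thus the lowest of the 16, and control arrays 1 and 2 lay within the range of the ligand arrays. CRH array 3, IL-6 array 2 and eNampt array 3 were the lowest of their groups. Control array 3 held the lowest value of the 16 arrays for 48 of 64 subunits (75.0%), against 38.6% of the 1218 other genes brighter than 5.68, the median level of the members. Control array 4, whose 90th percentile over all probe sets was lower still, held it for 5 subunits (7.81%), against 33.6% of those bright genes. CRH array 2 held the highest value for 21 subunits and eNampt array 2 for 10.

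**Figure D2:**
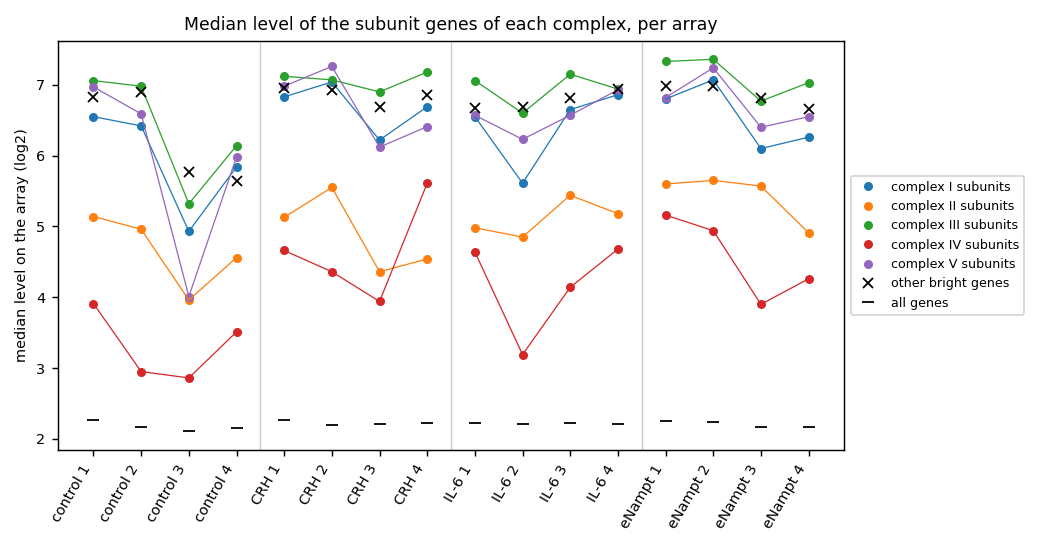
Median level (log2, y axis) of the subunit genes of each complex on each of the 16 arrays (x axis, grouped by treatment). Circles joined by lines are the complexes, crosses the 1218 other genes above 5.68, and dashes all 14557 genes. Control array 3 is low in all 5 complexes, and the crosses are low on both control arrays 3 and 4.

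Relative to control arrays 1 and 2, subunits were lower on control arrays 3 and 4 by a median of -1.15 (log2), with 61 of 64 (95.3%) lower. The 1218 other bright genes had a median of -1.08 and 95.1% lower, and all genes -0.19. The subunits were at -1.72 on control array 3 and -0.48 on control array 4, whereas the bright genes were at -1.07 and -1.06. Cytosolic ribosomal protein genes (45) were at -1.22 and -0.36 and mitochondrial ribosomal protein genes (62) at -1.43 and -0.51 on those arrays. All subunits of complex I (27), complex III (5) and complex V (14) were lower on the mean of control arrays 3 and 4, as were 3 of 4 in complex II and 12 of 14 in complex IV. In the ATP synthase, Atp5f1d, the delta subunit, was at -2.26, and of the 4 peripheral stalk genes Atp5pb was at -2.12, Atp5po at -2.02, Atp5pf at -1.94 and Atp5pd at -0.88. Sdha at -0.09, Sdhc at 0.27, Uqcrfs1 at -0.13 and Cox6b2 at 0.25 were close to 0 in this difference.

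**Figure D3:**
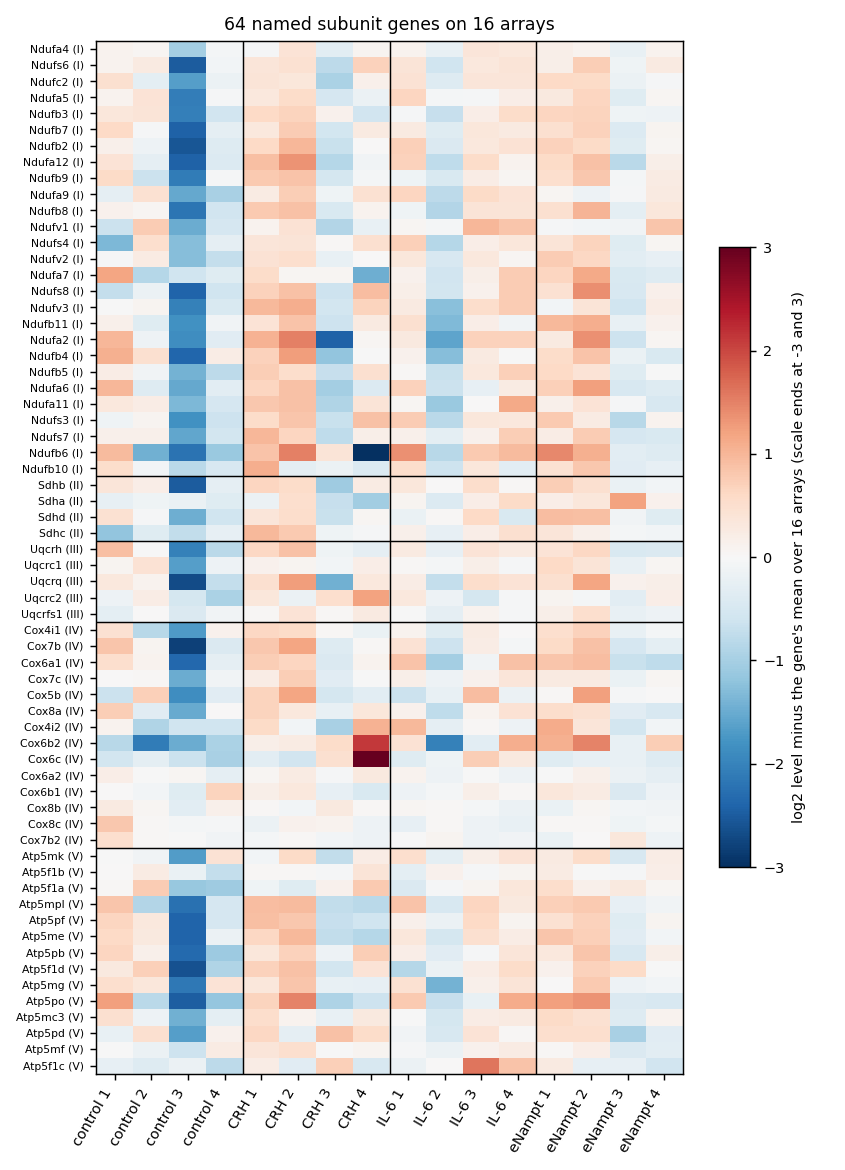
Level of each of the 64 named subunits (rows, grouped by complex) on each of the 16 arrays (columns, grouped by treatment), as the log2 difference from the gene's mean over 16 arrays, on a colour scale that ends at -3 and 3. The column of control array 3 is blue for most genes, and single rows such as Cox6b2 and Sdhc differ from that pattern.

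No member was called in any comparison: at an adjusted p under 0.05 (limma, over all 14557 genes), 0 of 83 passed for CRH, IL-6 or eNampt against control. Over all genes, 0 passed for CRH (0.0%), 1 for IL-6 (0.00687%) and 2 for eNampt (0.0137%). A moderated F test over the 3 ligands called 0 members, with a smallest adjusted p of 0.773, and 3 genes in all (0.0206%). At an unadjusted p under 0.05 it held 3 members, 3 of 83, against 5.14% of all genes.

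With CRH, 69 members were higher than control and 14 lower, with a median log2 difference of 0.55, against 0.10 for all genes and 0.47 for the 1218 other bright genes. Medians by complex were 0.67 (I), 0.56 (II), 0.41 (III), 0.55 (IV) and 0.44 (V). When control arrays 3 and 4 were left out, 43 were higher and 40 lower, with a median of 0.01 (bright genes -0.06), and the complexes were at 0.02, -0.15, 0.04, 0.05 and -0.01. At an unadjusted p under 0.05, 8 of 83 members were higher (5.56% of all genes) and 2 lower (0.763%). Of the 1218 other bright genes, 175 were higher at that threshold and 1 lower. The 8 members were Sdhc, Cox6b2, Ndufs8, Uqcrc2, Ndufa9, Uqcrfs1, Ndufs4 and Ndufv3, and the 2 were the copies Ndufb4l3 and Atp5hl1. For 3 members, Sdhc, Uqcrfs1 and Cox6b2, each CRH array was above every control array, a pattern held by 2.05% of all genes. The same held for 39 of the 1218 other bright genes.

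With IL-6, 68 members were higher and 15 lower, with a median log2 difference of 0.48, against 0.09 for all genes and 0.45 for the other bright genes. The complexes were at 0.56, 0.59, 0.26, 0.49 and 0.34. Against control arrays 1 and 2 alone, 35 were higher and 48 lower, with a median of -0.06 (bright genes -0.09), and complex II at 0.13 was the 1 complex above 0. At an unadjusted p under 0.05, 4 members were higher (4.42% of all genes), namely Sdhc, Atp5f1c, Cox7a2l and Ndufs8, and 0 lower (1.11%). Of the 1218 other bright genes, 119 were higher at that threshold and 0 lower. For 0 members did all IL-6 arrays lie above all control arrays (2.41% of all genes, and 39 of those 1218).

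With eNampt, 69 members were higher and 14 lower, with a median log2 difference of 0.54, against 0.06 for all genes and 0.55 for the other bright genes. The complexes were at 0.62, 0.73, 0.33, 0.31 and 0.42. With control arrays 1 and 2 alone, 40 were higher and 43 lower, with a median of -0.03 (bright genes -0.02). Complex II was then at 0.39 and the other complexes between -0.16 and 0.04. At an unadjusted p under 0.05, 4 members were higher (6.17% of all genes), namely Cox6b2, Ndufs8, Sdhc and Sdha, and 0 lower (1.38%). Of the 1218 other bright genes, 181 were higher at that threshold and 4 lower. Sdha, Sdhc and Cox6b2 were the 3 members whose eNampt arrays all lay above all control arrays (2.81% of all genes). The same held for 74 of the 1218 other bright genes.

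The 3 comparisons share the same control arrays, so a low control array moves all of them alike. Leaving out control array 3 alone brought the medians to 0.16 for CRH, 0.05 for IL-6 and 0.17 for eNampt. Repeating the quantile normalization on the deposited values, which gives every array the same distribution, brought them to 0.26, 0.21 and 0.21.

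**Figure D4:**
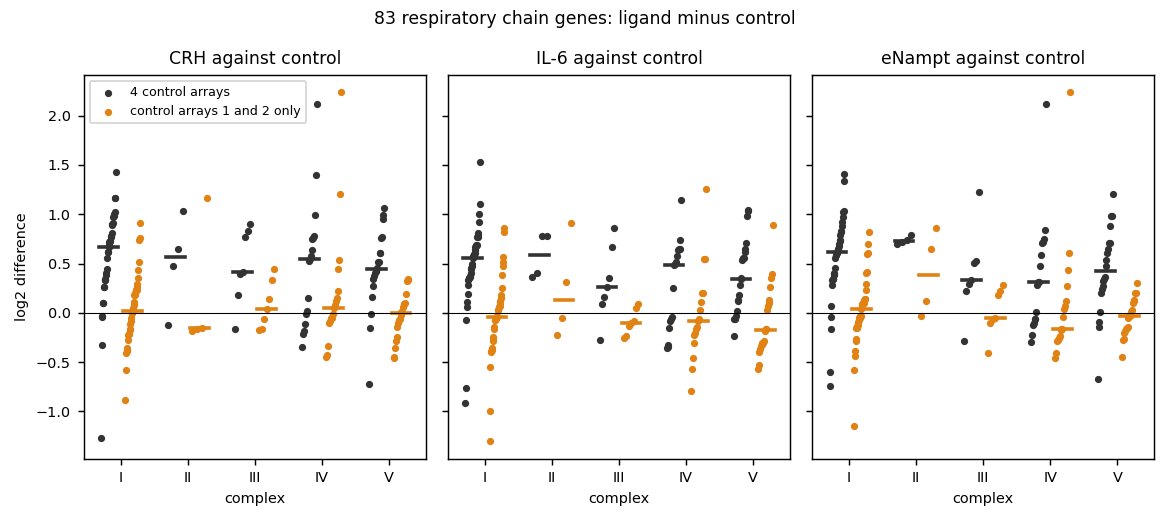
Log2 difference from control (y axis) of the 83 members by complex (x axis), in a panel for each ligand. Dark points use 4 control arrays and orange points control arrays 1 and 2 only, each point is 1 gene, and bars are medians. The dark medians lie between 0.26 and 0.73 and the orange ones between -0.17 and 0.39, with Cox6b2 above 2 in both sets for CRH and eNampt.

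In complex I, the core subunits that carry flavin and iron-sulfur clusters were measured through Ndufv1, Ndufv2, Ndufs7 and Ndufs8, and Ndufs3 is a core subunit without a cluster. Ndufs8, which carries iron-sulfur clusters on the path to coenzyme Q, was at 5.39, 5.93, 3.71 and 5.51 (log2) on control arrays 1 to 4 and at 6.79, 6.98, 5.49 and 7.02 with CRH. It was at 6.27, 5.56, 6.23 and 6.86 with IL-6 and at 6.55, 7.50, 5.62 and 6.26 with eNampt. Control array 3 was far below the rest, and each ligand group overlapped the control group through its lowest array. The differences were 1.43 ± 0.508 (SE) for CRH (adjusted p = 0.723), 1.10 for IL-6 (adjusted p = 0.860) and 1.34 for eNampt (adjusted p = 0.580). They were 0.91, 0.57 and 0.82 without control arrays 3 and 4. The ETS match of its promoter, shown above, lies close to the gene's start.

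The other core subunits of complex I had smaller differences. Ndufv1, the FMN-binding subunit, was at 0.33 with CRH, 0.92 with IL-6 and 0.62 with eNampt, and Ndufv2 was at 0.62, 0.50 and 0.65. Ndufs3 was at 1.02, 0.77 and 0.70 and Ndufs7 at 0.72, 0.64 and 0.46. None of these 4 passed an unadjusted p under 0.05 for any ligand. Against control arrays 1 and 2 alone they lay between -0.21 and 0.43. Among accessory subunits, Ndufs4, of the NADH-oxidising module, was lowest on control array 1 at 5.11 and differed by 0.91 with CRH, by 0.74 without control arrays 3 and 4 and by 0.46 with the quantile normalization repeated. The CRH difference of Ndufa9 was 0.90 ± 0.388 (SE) and that of Ndufv3 1.16 ± 0.525, and they were 0.23 and 0.52 without those control arrays. Of the 27 subunits, 26 were higher with CRH, 26 with IL-6 and 27 with eNampt, and 15, 13 and 15 against control arrays 1 and 2 alone.

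Complex II, whose subunits also belong to the citric acid cycle, held 2 members, Sdhc and Sdha, that were not lowest on control array 3. Sdhc, the large membrane anchor, was at 2.34, 3.17, 2.78 and 3.27 on control arrays 1 to 4 and at 4.49, 4.32, 3.40 and 3.49 with CRH. With IL-6 it was at 3.67, 3.27, 3.72 and 4.01, and with eNampt at 3.88, 3.67, 3.47 and 3.43. The lowest control value was on array 1, and the CRH and eNampt arrays all lay above the control arrays, while IL-6 array 2 met the highest of them. Means were 2.89 ± 0.422 (SD, n = 4) for control, 3.92 ± 0.562 for CRH, 3.66 ± 0.305 for IL-6 and 3.61 ± 0.206 for eNampt. The difference was 1.03 ± 0.273 (SE, 2.05-fold) for CRH (limma adjusted p = 0.451), 0.78 for IL-6 (0.846) and 0.72 for eNampt (0.580). It was as large without control arrays 3 and 4, at 1.17, 0.91 and 0.86. With the quantile normalization repeated it was 0.98, 0.65 and 0.53.

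Sdha, the flavoprotein that oxidises succinate, was at 5.53, 5.65, 5.58 and 5.42 on the control arrays and at 5.99, 6.11, 6.98 and 5.91 with eNampt. It was at 5.60, 6.28, 5.10 and 4.73 with CRH and at 5.87, 5.38, 5.99 and 6.36 with IL-6. The control arrays were close together, the eNampt arrays all lay above them, and the CRH arrays lay on both sides. The difference was 0.70 ± 0.315 (SE) for eNampt (adjusted p = 0.654), 0.65 without control arrays 3 and 4, and 0.27 when the quantile normalization was repeated. It was -0.12 for CRH and 0.36 for IL-6. Sdhb and Sdhd, by contrast, were lowest of 16 on control array 3, at 5.08 and 2.83, and all of their differences lay between -0.22 and 0.12 against control arrays 1 and 2 alone.

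In complex III, Uqcrc2, a core protein, was at 6.59, 6.98, 6.21 and 5.80 on the control arrays, at 7.09, 6.58, 7.26 and 7.96 with CRH, at 7.06, 6.60, 6.23 and 6.72 with IL-6 and at 6.82, 6.68, 6.44 and 6.95 with eNampt. Control array 4 was the lowest and CRH array 4 the highest, and the groups overlapped. The difference for CRH was 0.83 ± 0.294 (SE, adjusted p = 0.728), and it was 0.44 without control arrays 3 and 4 and 0.39 with the quantile normalization repeated. Uqcrfs1, the Rieske iron-sulfur protein, lay between 3.35 and 3.79 on the control arrays and between 3.81 and 4.19 with CRH, without overlap. Its difference was 0.39 ± 0.173 (adjusted p = 0.777) and 0.33 without control arrays 3 and 4. Uqcrq, a small membrane subunit, had the largest t of this complex for eNampt, at 1.23 ± 0.633 (adjusted p = 0.681). It was at 7.17, 6.96, 4.18 and 6.14 on the control arrays and at 7.33, 8.04, 6.99 and 7.03 with eNampt, and its difference was 0.28 without control arrays 3 and 4.

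In complex IV, Cox6b2 had the largest differences of all members for CRH and for eNampt. Cox6b proteins sit on the outer face of the oxidase near the cytochrome c site. It was at 3.26, 2.01, 2.62 and 3.15 on the control arrays, at 4.28, 4.35, 4.66 and 6.22 with CRH, at 4.54, 2.07, 3.79 and 5.20 with IL-6 and at 5.17, 5.59, 3.89 and 4.85 with eNampt. All CRH and eNampt arrays lay above all control arrays, and IL-6 array 2 lay among the control arrays. Means were 2.76 ± 0.573 (SD, n = 4) for control, 4.88 ± 0.909 for CRH, 3.90 ± 1.35 for IL-6 and 4.88 ± 0.722 for eNampt. The difference was 2.12 ± 0.613 (SE, 4.34-fold) for both CRH (adjusted p = 0.548) and eNampt (adjusted p = 0.410), and 1.14 for IL-6 (adjusted p = 0.860). Against control arrays 1 and 2 alone it was 2.24, 2.24 and 1.26.

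None of the other complex IV subunits passed an unadjusted p under 0.05 for any ligand against control. Cox4i1 was at 0.75, 0.49 and 0.72 for CRH, IL-6 and eNampt, and at 0.45, 0.20 and 0.43 against control arrays 1 and 2 alone. Cox4i2 was at 0.64, 0.65 and 0.71, and at 0.54, 0.55 and 0.61, so its values changed little when those control arrays were left out. With the quantile normalization repeated on all 16 arrays they were smaller, at 0.38, 0.38 and 0.35. Cox7b was at 0.99, 0.58 and 0.75, and at -0.05, -0.46 and -0.29. Cox6c, which lay between 1.66 and 2.34 on the control arrays, was at 6.21 on CRH array 4 and between 2.05 and 3.12 on the other CRH arrays. Its CRH difference of 1.40 had an unadjusted p of 0.0502 in limma. The same CRH array 4 held the highest Cox6b2 value.

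The median of the 14 complex IV subunits rests on few genes, because Cox6b2 and Cox4i2 lie in the middle of their order. It was 3.91, 2.95, 2.86 and 3.51 on the control arrays and 3.94 to 5.61 with CRH, so the lowest CRH array was barely above the highest control array. Of the 14 subunits, 1, Cox6b2, had all CRH arrays above all control arrays. Cox7a2l, which helps complex III and complex IV assemble into supercomplexes, had the largest t of complex IV for IL-6. It was at 6.49, 6.21, 5.33 and 5.62 on the control arrays and at 6.73, 6.72, 6.41 and 6.35 with IL-6, and the groups overlapped. The difference was 0.64 ± 0.289 (SE, adjusted p = 0.860), 0.20 without control arrays 3 and 4, and 0.25 with the quantile normalization repeated. Cox8c had the lowest t among subunits for IL-6, at -0.33 (adjusted p = 0.860), on a probe set below the median of all values.

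In complex V, the catalytic head was measured through Atp5f1a and Atp5f1b, and the central stalk of the rotor through Atp5f1c and Atp5f1d. Atp5f1b had the narrowest range of these 4 genes, from 8.01 on control array 4 to 9.10 on CRH array 4. Its differences were 0.27, 0.13 and 0.27 for CRH, IL-6 and eNampt. Atp5f1a was at 0.46, 0.35 and 0.61 and Atp5f1d at 0.99, 0.56 and 0.98, and against control arrays 1 and 2 alone all 6 values were below 0. Atp5f1c, the gamma subunit of the rotor, was at 1.81, 1.67, 1.89 and 1.26 on the control arrays and at 1.88, 2.07, 3.66 and 2.91 with IL-6. The IL-6 arrays 3 and 4 were high, and the lowest IL-6 array lay among the control arrays. The difference for IL-6 was 0.98 ± 0.362 (SE, adjusted p = 0.860), and 0.89 without control arrays 3 and 4. Its mean over 16 arrays was 2.06, close to the median of all values.

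The peripheral stalk, which holds the head still, was measured through Atp5pb, Atp5pd, Atp5pf and Atp5po. Their CRH differences were 1.06, 0.76, 0.61 and 0.95, and 0.01, 0.32, -0.36 and -0.06 against control arrays 1 and 2 alone. Atp5mc3, of the c-ring, was at 0.52, 0.34 and 0.54 for CRH, IL-6 and eNampt, and at 0.01, -0.18 and 0.03. The inhibitor Atp5if1 was at 0.61, 0.62 and 0.65, and at 0.09, 0.10 and 0.13. Atp5mk, the brightest member, was at 0.34, 0.54 and 0.48, and at 0.06, 0.26 and 0.20.

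**Figure D5:**
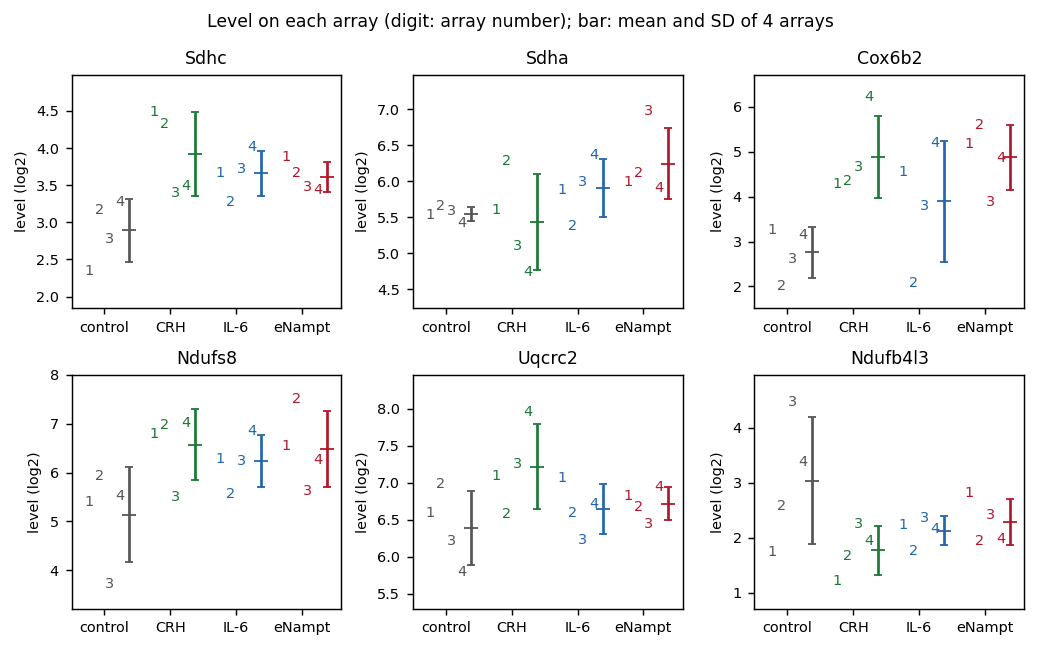
Level (log2, y axis) of 6 members on each array by group (x axis). Digits are array numbers, and bars show the mean and SD of 4 arrays. Sdhc and Cox6b2 show CRH and eNampt arrays above all control arrays, Sdha shows eNampt arrays above them, Ndufs8 is low on control array 3, and Ndufb4l3 is high there.

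The pseudogenes and copies had median differences near 0. They were 0.04 for CRH, -0.05 for IL-6 and -0.02 for eNampt, where the subunits had 0.64, 0.55 and 0.62. Against control arrays 1 and 2 alone the copies were at -0.08, -0.18 and -0.04 and the subunits at 0.01, -0.06 and 0.00, so that both lay near 0. Ndufb4l3, a copy related to Ndufb4, was at 1.74, 2.57, 4.46 and 3.37 on the control arrays, at 1.21, 1.67, 2.25 and 1.94 with CRH, at 2.23, 1.76, 2.36 and 2.16 with IL-6 and at 2.82, 1.95, 2.42 and 1.97 with eNampt. Control arrays 3 and 4 were the highest of the 16, opposite to the subunits. Its difference was -1.27 ± 0.442 (SE) for CRH (adjusted p = 0.711) and -0.91 for IL-6 (adjusted p = 0.860), and -0.39 and -0.03 without those arrays. Atp5hl1, a pseudogene, was at 4.12 and 5.03 on control arrays 3 and 4 and at 3.24 and 3.41 on the other control arrays. Its difference was -0.72 for CRH (adjusted p = 0.784) and -0.67 for eNampt (adjusted p = 0.681), and -0.10 and -0.05 without them. Uqcr11l1, a dim copy at 1.76, was at -0.27 for IL-6 (adjusted p = 0.865) and at -0.29 for eNampt (adjusted p = 0.713), and at -0.08 and -0.10 without those arrays.

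Differences between ligands do not use the control arrays, although their tests share the spread of all 16 arrays, and 0 members were called in any pair. Over all genes, 2 were called for eNampt against CRH (0.0137%), 2 for eNampt against IL-6 (0.0137%) and 0 for CRH against IL-6 (0.0%). With the spread taken without control arrays 3 and 4, 0 members were called again, against 3 (0.0206%), 2 and 0 genes in all. The median differences of the members were 0.00, 0.06 and 0.10, with 42, 51 and 56 of 83 higher. At an unadjusted p under 0.05, 1 member was higher for eNampt against CRH (2.56% of all genes), and 1 was lower for eNampt against IL-6 (1.62%). These were Sdha, at 0.82 ± 0.315 (SE, adjusted p = 0.943), with values that overlapped, and Ndufa4l2, at -0.60 (adjusted p = 1.0). Ndufa4l2 lay between 1.51 and 2.03 on 3 IL-6 arrays and at 3.15 on IL-6 array 4, and it was at -0.48 for CRH against IL-6 (adjusted p = 1.0). Both differences rested on that array, being -0.24 and -0.11 without it, and the unadjusted p of the first (limma) went from 0.0487 to 0.0661 when the spread was taken without control arrays 3 and 4. Uqcrc2 had the highest t for CRH against IL-6, at 0.57 (adjusted p = 1.0; 0.33 without CRH array 4), Atp5mf, a small membrane subunit, the lowest for eNampt against CRH, at -0.36 (adjusted p = 0.943), and Atp5mgl3, a dim copy, the highest for eNampt against IL-6, at 0.39 (adjusted p = 1.0; 0.23 without eNampt array 1).

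Other genes of the pathway were read from lists, and 0 genes of these lists were called for any ligand against control. Assembly factors (36 measured of 48) had medians of 0.40, 0.49 and 0.30 for CRH, IL-6 and eNampt, and of 0.04, 0.09 and 0.15 against control arrays 1 and 2 alone. Citric acid cycle and pyruvate dehydrogenase genes (13 of 18) were at 0.62, 0.42 and 0.46, and at 0.05, -0.19 and -0.24. Coenzyme Q synthesis genes (10 of 13) were at 0.12, 0.33 and 0.47, and at 0.04, 0.04 and 0.22. Carriers and pores (5 of 6) were at 0.34, 0.14 and 0.24, and at 0.00, -0.24 and -0.05. For chain genes outside the symbol rule (6 of 8) the direction turned, from 0.16, 0.23 and 0.23 to -0.34, -0.45 and -0.34 against control arrays 1 and 2 alone. Regulators of mitochondrial biogenesis (13 of 15) were at 0.06, 0.09 and 0.02, and at -0.05, 0.06 and -0.18. Mitochondrial ribosomal protein genes (62) were at 0.40, 0.29 and 0.57, and at -0.01, -0.19 and 0.09. Cytosolic ones (45) were at 0.28, 0.21 and 0.33, and at -0.08, -0.17 and -0.05.

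From these lists, genes were named by the size of their moderated F. Cs, citrate synthase, which starts the citric acid cycle, was at 3.43 ± 0.685 (SD, n = 4) in control, 4.68 ± 0.142 with CRH, 3.98 ± 0.885 with IL-6 and 5.44 ± 0.384 with eNampt. Its eNampt difference was 2.01 ± 0.397 (SE, adjusted p = 0.142), and 2.55 without control arrays 3 and 4, and its F test had an adjusted p of 0.349. Ecsit, a complex I assembly factor, was at 4.17 ± 1.41 in control, 2.68 ± 1.13 with CRH, 4.85 ± 0.682 with IL-6 and 5.43 ± 0.259 with eNampt. Its CRH difference was -1.49 ± 0.639 (adjusted p = 0.777), and -2.59 without control arrays 3 and 4, which took its eNampt difference from 1.26 to 0.16. Surf1, a complex IV assembly factor, differed by 1.49 ± 0.477 with CRH (adjusted p = 0.661) and by 0.03 with eNampt, and by 1.20 and -0.27 without them. Gabpa, the DNA-binding subunit of GABP, was at 0.05, 1.01 and 0.22 for CRH, IL-6 and eNampt, and at 0.46, 1.42 and 0.63 against control arrays 1 and 2 alone. Its IL-6 difference had an SE of 0.333 (limma adjusted p = 0.827), and its F test an adjusted p of 0.928. The control mean of Gabpa was 2.36, not far above the median of all values. Gabpb1, its partner, was at 0.68, 0.31 and 0.48, and at 0.45, 0.08 and 0.25. Cyc1, the cytochrome c1 subunit of complex III, was at 0.79, 0.66 and 0.73, and at -0.10, -0.23 and -0.16 against control arrays 1 and 2 alone.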

How the data were processed

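Expression was measured on 16 arrays, 4 a group. The authors deposited 1 table of log2 values per probe set, which are RMA values per the submitters' processing notes. Neither the version of that tool nor the probe set level or build is given in the sources used here. Of 36685 probe sets, 14824 had 1 gene symbol, 829 several and 21032 none in the annotation. Those with 1 symbol were used, the brightest per gene over 16 arrays, which gave 14557 genes. Names were updated through Entrez identifiers (14670 probe sets matched), and 12 probe sets that share a member symbol with another symbol were left out.

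Groups came from the sample titles. From the deposited log2 values, limma 3.58.1 in R 4.3.3 fitted 1 mean per group to all 16 arrays (12 residual and 2.28 prior degrees of freedom). Tests were two-sided and moderated, with Benjamini-Hochberg adjustment over all genes of a comparison, and the call threshold was an adjusted p of 0.05. Over all genes, the median SE of a difference was 0.281 (log2), and the number of arrays limits the precision. The members scattered more, with a median SD within groups of 0.67, against a median residual SD of 0.409 for all genes. The scripted fit was tested on simulated data with genes drawn from the whole array. It called 37.3% of 67 genes given a log2 change of 1 and 76.1% of 67 given a change of 2, with 13 false calls. These shares check the script and do not give the share of changed members that would be called, since the members scattered more than the whole array. In the measured data, Cox6b2 differed by 2.12 for eNampt against control and was not called (limma adjusted p = 0.41). Dim probe sets were kept.

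The members and lists were chosen with earlier results of these data known, so lists are described by counts and medians with no test. Levels were given for the 2 brightest members of complexes I, III, IV and V, for all of complex II, for isoform pairs and for Atp5if1. Differences were given for the member with the largest moderated t in each complex, the 2 members with the lowest t for each ligand, the extreme members of each pair of ligands, and up to 2 genes a list by F. Other members were chosen for their role or for an unadjusted p under 0.05 after their values were seen. Alternatives were other normalizations, a filter, other variance models, array weights, a replicate block, other probe set rules, and arrays left out. The labels name no batch. Promoters are RefSeq's, on GRCr8, and no coordinates of probe sets are given.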

Additional observations from a re-analysis of the deposited data

Results flagged for a closer look

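Among the named members and the medians by complex, an array far from the other 3 of its group was found 6 times in 156 groups, where chance alone gives about 1 in 20, or 7.8. Cox8c was at 2.30 (log2) on control array 1 and at 1.43 to 1.52 on the other control arrays. Ndufa4 was at 8.13 on control array 3 and at 9.08 to 9.26 on the others. Ndufs6 was at 6.13 on control array 3, against 8.54 to 8.89, and at 8.03 on IL-6 array 2, against 8.94 to 9.01. Ndufs8 was at 5.49 on CRH array 3, against 6.79 to 7.02. The median of the complex II members was 4.91 on eNampt array 4, against 5.57 to 5.65. Control array 3, CRH array 3 and IL-6 array 2 were also the lowest arrays of their groups in the median of all subunits.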

How the results depend on the processing

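In each of 20 alternatives per comparison, and 27 for the F test, 0 members were called. For the member differences named by their t, the direction did not reverse in any alternative. Other members did reverse, such as Sdhb for CRH, at 0.65 and at -0.18 without control arrays 3 and 4. With CRH, 69 members were higher and 14 lower, and 43 and 40 without those arrays. The median over members ranged from 0.01 to 0.76 for CRH, -0.06 to 0.69 for IL-6 and -0.03 to 0.72 for eNampt, lowest in each without control arrays 3 and 4. Leaving out 1 array at a time gave 0.16 to 0.76, 0.05 to 0.69 and 0.17 to 0.72. Cyclic loess gave 0.19, 0.09 and 0.12. Without control arrays 3 and 4, the complex II median went from 0.56 to -0.15 for CRH and from 0.59 to 0.13 for IL-6. With quantile normalization repeated as well (an alternative chosen after seeing the data), it was 0.00 for CRH. The other complexes moved too. For IL-6, complexes I, III, IV and V were at -0.04, -0.10, -0.08 and -0.17 without those arrays. Cox6b2 kept 1.67 to 2.32 for CRH (adjusted p 0.357 to 0.960) and 1.76 to 2.45 for eNampt (0.251 to 0.930). Sdhc kept 0.84 to 1.23 for CRH (0.287 to 0.946). Replicate numbers were not taken to pair the arrays, since 8 of 24 same-numbered pairs correlated over 0.1 (-0.184 to 0.305). That 8 of 16 arrays correlated best with their own number is a hint from the data, not the design. With the replicate number as a block, 0 members were called and the medians were 0.55, 0.48 and 0.54. Members near the median of all values, 1.95, are limited by signal over background.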
